A study of Mus musculus with 4 samples.

Results

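The genes described here are 10 of the lysosome, the acidic compartment in which cells break down proteins, lipids and sugars. They are the proteases cathepsin A, B, C, D, H, S and Z (Ctsa, Ctsb, Ctsc, Ctsd, Ctsh, Ctss, Ctsz), the thiol reductase Ifi30, and the membrane glycoproteins Lamp1 and Lamp2. They were chosen by symbol for their place in the cell, by a rule that names no measured value, but with earlier results of these data known. All 10 were found by NCBI gene number among the 27179 genes of the deposited table. All 10 passed the filter on low values (mean FPKM of at least 0.5), which kept 13230 genes for testing.

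RNA-sequencing was performed on 4 libraries of leukemia-initiating cells (LICs) from the bone marrow of C57BL/6 mice with MLL-AF9 acute myeloid leukemia, 2 of genotype wild type (WT) and 2 of genotype CD274-/- (CD274-null). All 4 carry the age label 6 weeks, which does not say whether donor or recipient is meant, and all 4 carry the MLL-AF9 fusion. The leukemia was made with the retrovirus MSCV-MLL-AF9-IRES-YFP in Lin- fetal liver cells that were given to lethally irradiated C57BL/6 recipients. The labels call the cells LSC and describe sorted cells, and the study's LICs are Mac-1+/c-Kit+. Its sequencing methods, however, name tissue as the source of the RNA. Neither the number of mice behind a library nor the round of transplantation is stated. The p-values below therefore measure the spread between these libraries, which need not be the spread between single mice. Genes of the sex chromosomes, given below with Lamp2, differed between libraries of the same label.

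Lysosomal proteases are made as inactive precursors and become active when they are cleaved at low pH. Cathepsins differ in the residue that cuts the substrate, which is cysteine in B, C, H, S and Z, aspartate in D and serine in A. LAMP proteins line the inner face of the lysosomal membrane and shield it from the enzymes inside. In myeloid cells lysosomes digest what the cell takes up and prepare peptides for MHC class II. Many lysosomal genes share the palindrome TCACGTGA near the start site, where the transcription factors TFEB and TFE3 are known to bind.

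The RefSeq promoter windows of GRCm38.p6 run from 250 bases before to 50 bases after a start site, and 8 of the 10 genes had at least 1 (none for Ctsb and Ctsh). Searched were the palindrome TCACGTGA and its core CACGTG, which every TCACGTGA contains and which reads the same on both strands. TCACGTGA was found in windows of 3 of the 8 genes (37.5%), Ctsa, Ctsd and Ifi30, and CACGTG in those and Lamp1 (4 of 8). Among all 27025 genes with a window, 1.12% had TCACGTGA and 8.09% had CACGTG. The windows of Ctsc, Ctss, Ctsz and Lamp2 did not have these letters. The stretches that hold the matches before the start site are shown because these genes differ among each other in how many copies they carry. Each is written 5′ to 3′ on the strand of its gene, with CACGTG in capitals.
Lamp1, chr8:13159070-13159160, plus strand: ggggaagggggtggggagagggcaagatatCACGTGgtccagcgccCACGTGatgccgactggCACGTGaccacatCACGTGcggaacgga
Ctsd, chr7:142387890-142388077, minus strand: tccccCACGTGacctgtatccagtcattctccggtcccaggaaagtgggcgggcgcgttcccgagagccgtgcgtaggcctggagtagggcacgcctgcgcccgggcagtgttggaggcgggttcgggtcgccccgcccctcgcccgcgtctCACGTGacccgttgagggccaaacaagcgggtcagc
Ifi30, chr8:70766824-70766889, minus strand: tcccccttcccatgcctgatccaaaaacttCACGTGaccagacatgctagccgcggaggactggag
Ctsa, chr2:164833731-164833772, plus strand: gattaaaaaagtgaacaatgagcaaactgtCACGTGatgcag
Lamp1 had 4 copies of CACGTG, which began 61, 45, 28 and 15 bases before the start site, and only 8 of all 32851 windows had 4 or more. Of the 2 copies of Ctsd the one nearer to the start site lay within TCACGTGA. The stretch of Ctsa lies before an alternative start site. That window held 2 copies of TCACGTGA, and the other one, whose CACGTG began at position 6 after the start site, is not printed. The window at the other start site of Ctsa had no match. A match describes the letters of the window and says nothing of binding in these cells.

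The deleted gene did not separate the libraries. Cd274 had an FPKM of 2.80 and 0.945 in the libraries labelled WT and of 1.43 and 2.29 in those labelled CD274-null, from 118, 35, 46 and 83 reads (log2 fold change 0.09, standard error 0.51, adjusted p = 0.955 with limma). A value per gene does not show which exons the reads came from. The direction of every difference below therefore rests on the labels. Reads on genes, recovered from the FPKM values, came to 11048767 and 9740856 for the labelled WT libraries and to 8452662 and 9520926 for the labelled CD274-null libraries. Itgam, which encodes the Mac-1 subunit CD11b, was at 140.2, 174, 100.2 and 164 FPKM in the order WT 1, WT 2, CD274-null 1, CD274-null 2. Kit was at 6.59, 18.2, 16.2 and 19.5 FPKM, so both genes of the gate were detected in every library. The 10 lysosomal genes rested on at least 462 reads each in every library.

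Together the 10 genes summed to 1092 and 1709 FPKM in the labelled WT libraries and to 1167 and 1358 FPKM in the labelled CD274-null libraries, which was 0.214%, 0.347%, 0.229% and 0.259% of all FPKM. The labelled CD274-null libraries thus lay between the labelled WT libraries in the sum. By mean FPKM over the 4 libraries the order ran from Lamp1 (309) over Ctsd (253), Ctsz (202), Ctsb (125), Ctsa (97.0), Ctsh (91.4), Lamp2 (86.4), Ifi30 (85.4) and Ctss (57.7) to Ctsc (25.2). Ctsd over Ctsz, Ctsz over Ctsb, Ctsb over Ctsa, Ifi30 over Ctss and Ctss over Ctsc held in all 4 libraries. Lamp1 over Ctsd and Ctsa over Ctsh held in 3 of 4. Ctsh over Lamp2 and Lamp2 over Ifi30 held in 2 of 4, so Ctsh, Lamp2 and Ifi30 cannot be ordered by level. The plot of FPKM by gene and library shows these levels.

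**Figure D1:**
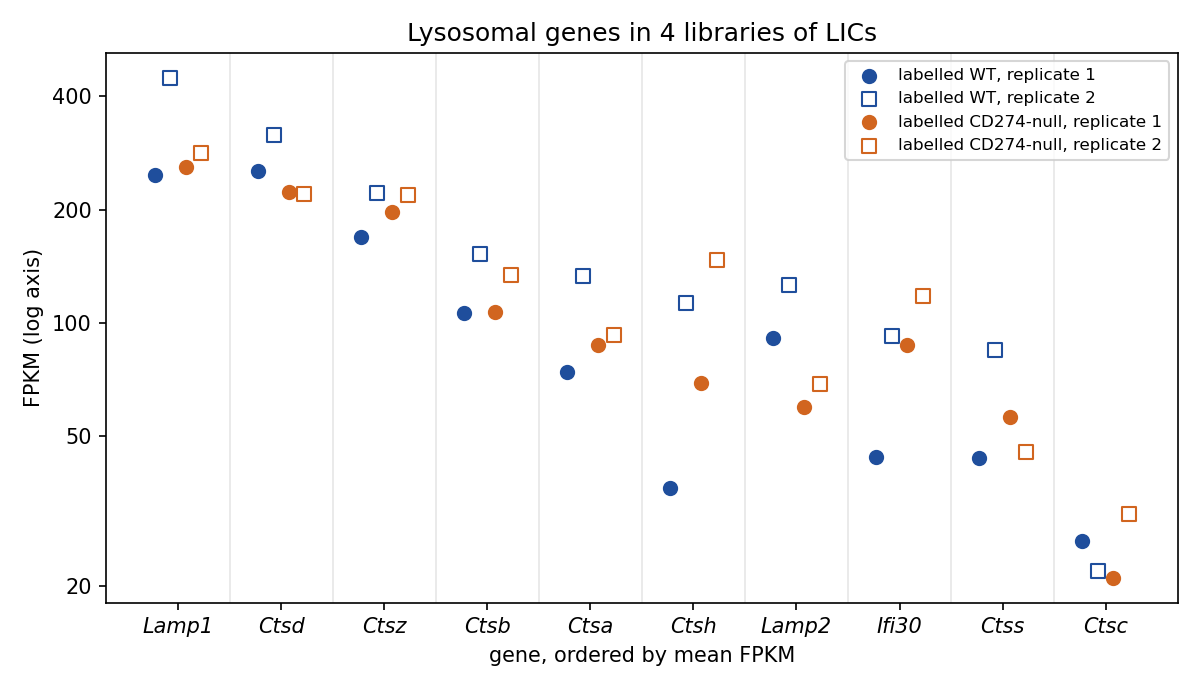
FPKM of the 10 genes on a log axis, 1 point per library, blue for libraries labelled WT and orange for those labelled CD274-null, filled circles for replicate 1 and hollow squares for replicate 2. Labelled WT replicate 2 is the highest of the 4 points for 7 genes, while Lamp2 and Ctsd are the genes with both orange points below both blue ones.

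To ask whether these genes differ with CD274, log2(FPKM + 0.5) was compared between the labels with limma across all 13230 genes. Candidates had to pass the study's cutoffs, a change of more than 1.5 times together with an unadjusted p under 0.01. None of the 10 lysosomal genes was a candidate, and among all genes tested 3.63% were, with 2.39% as higher and 1.24% as lower under the CD274-null label. At an adjusted p under 0.05, limma called 0 of the 10 and 0.0756% of all genes. At an unadjusted p under 0.05 limma called 1 of the 10 (Lamp2), against 13.7% of all genes, and limma's voom on the recovered reads called the same 1 and no candidate. The median log2 fold change was -0.12 over the 10 genes and 0.01 over all genes tested. The split of all candidates depended on scaling, with 316 higher and 164 lower in the deposited values and 254 and 210 after quantile normalization. After a correction for GC content, which covered 11435 genes, it was 160 and 162. With 2 libraries per label the intervals were wide, and for none of the 10 genes did the 95% interval lie wholly inside a change of 1.5 times in either direction.

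**Figure D2:**
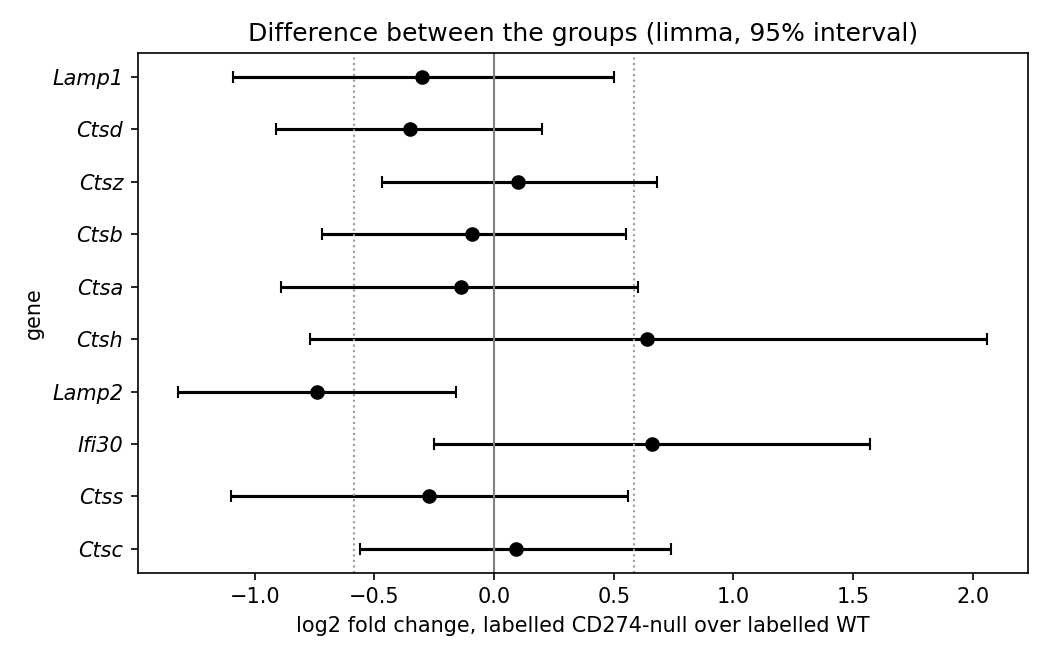
Log2 fold change of each gene on the log2(FPKM + 0.5) scale, labelled CD274-null over labelled WT (2 libraries each), with limma's 95% interval as the bar; the dotted lines mark a fold change of 1.5. The interval of Lamp2, from -1.32 to -0.16, is the one that does not reach 0.

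Lamp2 encodes the LAMP whose splice form LAMP-2A is the receptor of chaperone-mediated autophagy, and it had the lowest p of the 10. It lies on X:38399647-38456460 of GRCm38.p6 (minus strand). Lamp2 FPKM was 91.2 and 126 in the labelled WT libraries and 59.7 and 68.7 in the labelled CD274-null libraries. Both labelled CD274-null libraries were below both labelled WT libraries, with means of 109 ± 24.6 (SD, n = 2) and 64.2 ± 6.35 (SD, n = 2). The log2 fold change was -0.74 (standard error 0.24, 95% interval -1.32 to -0.16, adjusted p = 0.311 with limma), a fold of 0.60 with an interval from 0.40 to 0.90. Without WT replicate 1, Lamp2 became a candidate at a log2 fold change of -0.97 (adjusted p = 0.287 with limma). Its unadjusted p was no longer under 0.05 in 4 of 17 alternatives, which were leaving out WT replicate 2, CD274-null replicate 1 or CD274-null replicate 2, and the model without moderation. Over all alternatives the log2 fold change ran from -0.97 to -0.51. FPKM per gene cannot tell the LAMP-2 splice forms apart. At 38.7% its transcript GC content was the lowest of the 10.

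Lamp2 is the X-linked member of the 10, and genes of the sex chromosomes differed between the libraries. Xist, the RNA of the inactive X, was at 2.57 and 51.1 FPKM in the labelled WT libraries and at 107 and 68.7 FPKM in the labelled CD274-null libraries. The Y-linked genes Ddx3y, Eif2s3y, Kdm5d and Uty summed to 86.0, 66.2, 0.0460 and 29.4 FPKM in the same order. Of 384 X-linked genes tested, 105 (27.3%) had both labelled CD274-null libraries below both labelled WT libraries, against 21.8% of all genes tested. Of the 5 other X-linked genes in the lysosomal lists, Ids and Atp6ap2 had that order and Gla, Atp6ap1 and Tfe3 did not. The part of the sex chromosomes in the Lamp2 difference was not tested.

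Lamp1 encodes the other abundant LAMP, at 8:13159161-13175338 (plus strand), and was the gene with the highest mean level. Lamp1 FPKM was 247 and 447 in the labelled WT libraries and 259 and 282 in the labelled CD274-null libraries. The difference between the labelled WT libraries was larger than that between the labels, with means of 347 ± 142 (SD, n = 2) and 271 ± 15.8 (SD, n = 2). The log2 fold change of Lamp1 was -0.30 (standard error 0.33, 95% interval -1.09 to 0.50, adjusted p = 0.715 with limma), and without WT replicate 2 it was 0.13. The ratio of Lamp1 to Lamp2 was 2.70 and 3.55 in the labelled WT libraries and 4.35 and 4.10 in the labelled CD274-null libraries. Both labelled CD274-null libraries were above both labelled WT libraries in this ratio, which was chosen after the values were seen and not tested. Lamp1 and Lamp2 together made up 30.9% and 33.5% of the summed FPKM of the 10 genes in the labelled WT libraries, and 27.3% and 25.8% in the others.

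Ctsd encodes the aspartic protease cathepsin D, the main endopeptidase of its kind in lysosomes, at 7:142375910-142387827 (minus strand). Ctsd FPKM was 253 and 316 in the labelled WT libraries and 223 and 220.5 in the labelled CD274-null libraries. Like Lamp2, Ctsd had both labelled CD274-null libraries below both labelled WT libraries, an order found in 2 of the 10 genes and in 21.8% of all genes tested. The opposite order was found in 0 of the 10, against 25.6% of all genes. The log2 fold change of Ctsd was -0.35 (standard error 0.23, 95% interval -0.91 to 0.20, adjusted p = 0.527 with limma). Its sign was the same under all 17 alternatives, from -0.54 to -0.19.

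The cysteine cathepsins fall into endopeptidases and enzymes that trim the ends of proteins. Ctsb, which encodes a protease that both cuts inside proteins and removes dipeptides from their carboxyl end, lies at 14:63122462-63145923 (plus strand). Ctsb FPKM was 106 and 152 in the labelled WT libraries and 107 and 134 in the labelled CD274-null libraries, so the labels overlapped. Ctsz, for the carboxypeptidase cathepsin Z (also called X), lies at 2:174427494-174439039 (minus strand). Ctsz FPKM was 169 and 222 in the labelled WT libraries and 197 and 219 in the labelled CD274-null libraries, which lay between them. The log2 fold changes were -0.09 for Ctsb (95% interval -0.72 to 0.55, adjusted p = 0.908 with limma) and 0.10 for Ctsz (95% interval -0.47 to 0.68, adjusted p = 0.879). Ctsz was -0.13 after the correction for GC content, and Ctsb was 0.17 without WT replicate 2 and 0.08 without CD274-null replicate 1.

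Ctsh, for an aminopeptidase, at 9:90054267-90076095 (plus strand), had the largest ratio of its highest to its lowest library of the 10 genes. Ctsh FPKM was 36.4 and 113 in the labelled WT libraries and 69.3 and 147 in the labelled CD274-null libraries. Replicate 2 was the higher library under both labels, and the labels overlapped. The log2 fold change of Ctsh was 0.64 (standard error 0.58, 95% interval -0.77 to 2.06, adjusted p = 0.649 with limma), and it ran from -0.17 without WT replicate 1 to 1.46 without WT replicate 2. Ctsh made up 3.34% of the summed FPKM of the 10 genes in WT replicate 1 and 10.8% in CD274-null replicate 2. Its ratio to Ctsb was 0.34 and 0.75 in the labelled WT libraries and 0.65 and 1.09 in the others.

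Ctsc encodes dipeptidyl peptidase I, which activates the serine proteases of neutrophil granules, and lies at 7:88278024-88315861 (plus strand). Ctsc FPKM was 26.4 and 22.0 in the labelled WT libraries and 21.1 and 31.2 in the labelled CD274-null libraries. It was the gene with the lowest level of the 10 and the one gene that was lower in WT replicate 2 than in WT replicate 1. The log2 fold change of Ctsc was 0.09 (95% interval -0.56 to 0.74, adjusted p = 0.908 with limma), with values from -0.19 to 0.37 when single libraries were left out.

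Ctsa encodes a serine carboxypeptidase that also protects beta-galactosidase (Glb1) and neuraminidase (Neu1) in a complex, and lies at 2:164832872-164841032 (plus strand). Ctsa FPKM was 74.3 and 133 in the labelled WT libraries and 87.2 and 93.0 in the labelled CD274-null libraries. Both labelled CD274-null libraries lay between the labelled WT libraries, and the log2 fold change was -0.14 (standard error 0.31, 95% interval -0.89 to 0.60, adjusted p = 0.87 with limma). Without WT replicate 2 it was 0.28. The protected enzymes were added for this role, after their values were seen. Glb1 was at 17.7, 33.7, 23.8 and 22.4 FPKM and Neu1 at 44.8, 49.2, 59.9 and 78.9 FPKM in the order WT 1, WT 2, CD274-null 1, CD274-null 2. Glb1 thus had the same order as Ctsa at its highest and lowest library, and Neu1 had WT replicate 1 as its lowest only.

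Ctss and Ifi30 serve antigen processing. Cathepsin S cuts the invariant chain from MHC class II, and the product of Ifi30, also known as GILT, opens disulfide bonds of proteins in the same compartment. Ctss (3:95526786-95556405, plus strand) was at 43.9 and 84.9 FPKM in the labelled WT libraries and at 56.3 and 45.5 FPKM in the labelled CD274-null libraries. Ifi30 (8:70762773-70766663, minus strand) was at 44.2 and 92.4 FPKM in the labelled WT libraries and at 87.6 and 118 FPKM in the labelled CD274-null libraries. Both labelled CD274-null libraries lay between the labelled WT libraries for Ctss, and CD274-null replicate 2 was above both of them for Ifi30. The log2 fold changes were -0.27 for Ctss (95% interval -1.10 to 0.56, adjusted p = 0.757 with limma) and 0.66 for Ifi30 (95% interval -0.25 to 1.57, adjusted p = 0.474). Without WT replicate 2, Ifi30 became a candidate at 1.19 (adjusted p = 0.183 with limma) and Ctss was 0.20. The ratio of Ctss to Ifi30 was 0.99 and 0.92 in the labelled WT libraries and 0.64 and 0.39 in the labelled CD274-null libraries, a difference that was noticed in the values and not tested.

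Of 9 tested genes of MHC class II, whose peptides these enzymes prepare, H2-Aa, H2-Eb1 and the invariant chain Cd74 were candidates, each higher under the CD274-null label, against 3.63% of all genes tested. The median log2 fold change of the list was 1.33. Cd74 was at 3.18 and 2.57 FPKM in the labelled WT libraries and at 35.6 and 21.4 FPKM in the labelled CD274-null libraries (log2 fold change 3.07, standard error 0.33, adjusted p = 0.0693 with limma). H2-Aa was at 0.970 and 0.919 FPKM against 16.4 and 7.42 FPKM, and H2-Eb1 at 1.04 and 0.353 FPKM against 7.11 and 4.33 FPKM. H2-Ab1, the partner chain of H2-Aa, named after its values were seen, was at 10.5 and 12.3 FPKM against 16.1 and 10.4 FPKM (log2 fold change 0.18, adjusted p = 0.821 with limma). The call of H2-Eb1 was lost without CD274-null replicate 1, without CD274-null replicate 2 and without moderation, and those of H2-Aa and Cd74 without moderation.

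The labelled WT libraries differed from each other in most of the 10 genes. WT replicate 2 was above WT replicate 1 in 9 of the 10 genes, against 54.9% of all genes tested, and the exception was Ctsc. It was above by more than 1.5 times in 5 (Ctsa, Ctsh, Ctss, Ifi30, Lamp1), against 16.8% of all genes. WT replicate 2 was the highest of the 4 libraries in 7 of the 10, against 29.2% of all genes, and WT replicate 1 the lowest in 7, against 31.3%. The median ratio of WT replicate 2 to WT replicate 1 was 1.60 over the 10 genes and 1.04 over all genes tested. The count was also 9 after quantile normalization and after scaling to equal medians or equal sums, with median ratios from 1.56 to 1.67 over these scalings, against 51.4% to 58.5% of all genes. In 5 of the 10 (Ctsa, Ctsb, Ctss, Ctsz, Lamp1) both labelled CD274-null libraries lay between the labelled WT libraries, against 16.7% of all genes.

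The counting error of the reads can be set beside these ratios. The ratio of WT replicate 2 to WT replicate 1 was 1.81 for Lamp1, with a 95% counting interval from 1.76 to 1.87 (exact binomial, on recovered reads). It was 3.11 for Ctsh (2.85 to 3.40), 2.09 for Ifi30 (1.87 to 2.34) and 0.83 for Ctsc (0.74 to 0.93). The intervals cover counting error only, and for each of the 10 genes the interval left out 1. Between the labelled CD274-null libraries, replicate 2 was above replicate 1 in 8 of the 10 genes, against 34.4% of all genes tested, with a median ratio of 1.13 against 0.91. That count was 7 after quantile normalization, against 45.4% of all genes, and 9 with equal medians, against 48.0%. Ctsh had the highest ratio there as well (2.11, interval 1.96 to 2.28), Ctsc followed at 1.48 (1.32 to 1.66), and Ctss had the lowest (0.81, interval 0.72 to 0.90).

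**Figure D3:**
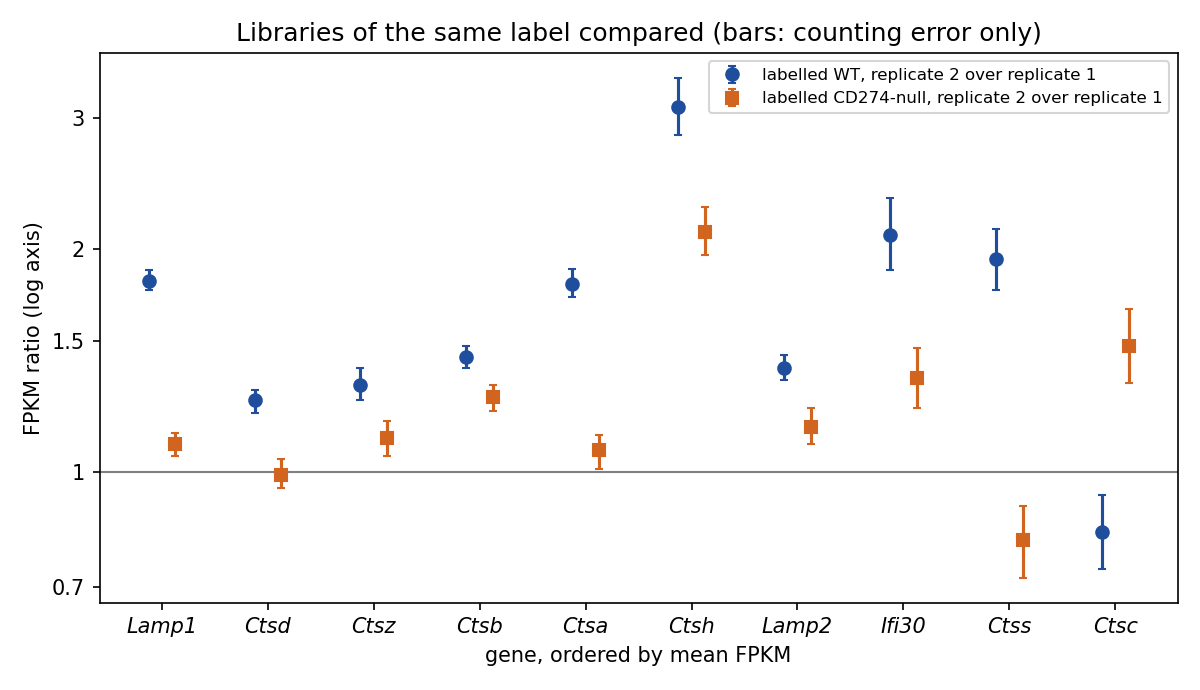
Ratio of FPKM in replicate 2 to replicate 1 on a log axis for each gene, blue circles for the libraries labelled WT and orange squares for those labelled CD274-null; the bars are 95% counting intervals from recovered reads and hold no biological variation. The blue points lie above 1 for every gene but Ctsc, and reach 3.11 at Ctsh.

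Other lysosomal genes were counted in 6 lists, written with earlier results of these data known. Of 99 tested, 3 were candidates (3.03%, against 3.63% of all genes tested), Cd68 as higher and Atp6v1a and Rab7 as lower under the CD274-null label. Their median log2 fold change was 0.05. WT replicate 2 was above WT replicate 1 in 81 of the 99 (81.8%) and above by more than 1.5 times in 41 (41.4%). It was the highest of the 4 libraries in 51 (51.5%), and 36 (36.4%) had both labelled CD274-null libraries between the labelled WT libraries. The higher level in WT replicate 2 was therefore also found in lysosomal genes outside the 10, with a median ratio of 1.36.

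The lists were not alike in this. The median ratio of WT replicate 2 to WT replicate 1 was 1.68 for the hydrolases of sugars and lipids (29 of 34 above), 1.64 for other lysosomal proteases (12 of 13) and 1.54 for other membrane proteins (15 of 17). It was 1.17 for subunits of the V-ATPase, the proton pump that acidifies lysosomes (13 of 17), and 1.11 for transcription factors and enzyme sorting (9 of 11). The cystatins and stefins, which inhibit cysteine cathepsins, had a median ratio of 0.73, with 3 of 7 above. No hydrolase, other protease, cystatin or stefin was a candidate in limma, and 3 of 34, 1 of 13 and 1 of 7 of them had an unadjusted p under 0.05, against 3.63% and 13.7% of all genes tested. With voom on the recovered reads the counts were the same, 0 candidates and 3, 1 and 1 genes. Among the hydrolases, Man2b1 (lysosomal alpha-mannosidase) was at 152, 462, 293 and 289.7 FPKM and Psap, the precursor of the saposins, at 140.2, 336, 222 and 195 FPKM, in the order WT 1, WT 2, CD274-null 1, CD274-null 2. Both had the labelled CD274-null libraries between the labelled WT libraries. The granule protease Ctsg was at 1167, 1712, 1322 and 507 FPKM and the aspartic protease Napsa at 205, 423, 225 and 266 FPKM. Of the inhibitors, Stfa1 was at 4143, 2994, 1961 and 3578 FPKM and Cst3, cystatin C, at 290.4, 641, 388 and 462 FPKM. Cst3 was highest in WT replicate 2, as were 7 of the 10 genes above, and Stfa1 was highest in WT replicate 1.

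**Figure D4:**
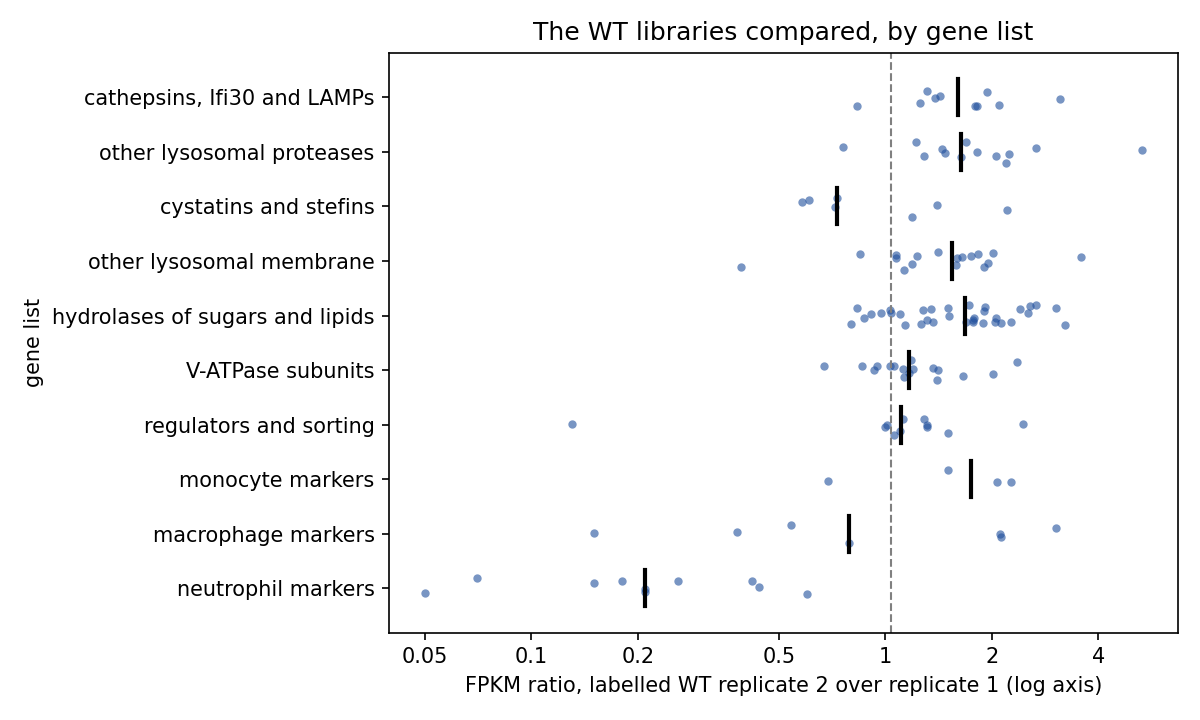
Ratio of FPKM in WT replicate 2 to WT replicate 1 on a log axis, 1 point per tested gene, with the median of each list as a black bar and the median over all genes tested (1.04) as a dashed line. The 10 lysosomal genes have a median of 1.60, the hydrolases 1.68, the cystatins and stefins 0.73 and the neutrophil markers 0.21.

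The 3 lysosomal candidates were a membrane protein, a pump subunit and a small GTPase. Cd68 (macrosialin, a LAMP-related protein of myeloid cells) was at 51.5 and 58.1 FPKM in the labelled WT libraries and at 86.9 and 113 FPKM in the labelled CD274-null libraries (log2 fold change 0.85, standard error 0.23, adjusted p = 0.274 with limma). Atp6v1a, the catalytic subunit of the V-ATPase, was at 90.1 and 60.3 FPKM against 37.9 and 29.5 FPKM (log2 fold change -1.13, standard error 0.27, adjusted p = 0.269 with limma). Rab7, which directs late endosomes to lysosomes, had a mean of 115 ± 21.8 FPKM (SD, n = 2) under the WT label and was at 64.5 and 48.9 FPKM under the CD274-null label (log2 fold change -1.02, standard error 0.25, adjusted p = 0.269 with limma). None of the 3 passed the adjusted threshold. Cd68 lost its call under 12 of 17 alternatives, and Atp6v1a and Rab7 under 5 each, with the same sign throughout.

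Tfeb and Tfe3, which encode the factors named above for the palindrome, did not pass the thresholds. Tfeb, named here outside the rule for its link to that motif, was at 7.95 and 8.03 FPKM in the labelled WT libraries and at 9.32 and 15.4 FPKM in the labelled CD274-null libraries (log2 fold change 0.56, 95% interval -0.20 to 1.32, adjusted p = 0.469 with limma). Tfe3 had means of 9.50 ± 2.68 FPKM (SD, n = 2) and 11.9 ± 0.213 FPKM (SD, n = 2) (adjusted p = 0.631 with limma). TCACGTGA was found in promoter windows of 11 of the 77 genes of the 6 lists that had one (14.3%) and CACGTG in 21 (27.3%). Atp6v1a was among the 11.

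Markers of other cell types moved with the spread between the labelled WT libraries. All 10 neutrophil markers were lower in WT replicate 2 than in WT replicate 1, with a median ratio of 0.21, and their summed level was 43483 and 8796 FPKM in the labelled WT libraries and 18349 and 31402 FPKM in the labelled CD274-null libraries. Each of them was detected in every library, from 1.03 FPKM for Cxcr2 to 16802 FPKM for S100a9. The neutrophil sum and the sum of the 10 lysosomal genes thus ran in opposite order within the labelled WT libraries and in the same order within the labelled CD274-null libraries. The 4 monocyte markers summed to 467 and 829.8 FPKM in the labelled WT libraries and to 840.0 and 813 FPKM in the others, with WT replicate 1 the lowest. Ly6c2 (335, 693, 713 and 740.2 FPKM in the order used before) made up most of that sum, and F13a1 ran the other way (97.0, 66.6, 59.9 and 24.2 FPKM). The 12 macrophage markers summed to 168, 187, 124 and 151 FPKM in the order used before. Of these Vcam1 (117, 92.3, 53.7 and 59.8 FPKM) was a candidate as lower, a call lost under 7 of 17 alternatives, and Timd4 was listed at 0 in all 4. Adgre1 (22.2, 47.1, 28.4 and 42.6 FPKM) and Csf1r (19.7, 41.7, 33.2 and 44.9 FPKM) were higher in replicate 2 under both labels. WT replicate 2 was above WT replicate 1 in 3 of the 7 tested macrophage markers. In bulk samples, a different share of a cell type and a different amount of RNA per cell cannot be told apart. The study's LICs are Mac-1+/c-Kit+, and mature neutrophils lack c-Kit. The labels describe sorted cells, while the study's sequencing methods name tissue as the source of the RNA. How far a sort shaped these libraries is therefore not known. The part of these cell types in the spread of the lysosomal genes was not tested.

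Dendritic cell markers summed to between 39.4 and 58.4 FPKM, B cell markers to between 12.9 and 39.6 FPKM, and T cell markers to between 0.33 and 2.18 FPKM. Cd79b made up nearly all of the B cell sum (12.8, 36.2, 35.6 and 37.4 FPKM). Plasma cell markers summed to between 67.8 and 178 FPKM, nearly all of it Xbp1 (177, 66.8, 133 and 106 FPKM), and Jchain was a candidate as higher (0.370 and 0.514 FPKM against 12.3 and 10.5 FPKM, adjusted p = 0.0369 with limma). Its adjusted p ran from 0.0299 to 0.517 over the alternatives and was not under 0.05 in 12 of 17, among them each fit that left out a library. Erythroid markers summed to 2.2, 55.2, 4.5 and 0.152 FPKM, with WT replicate 2 the highest.

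Of the 10 genes 6 share exon bases with a neighbour in GENCODE vM21, and neither the gene models nor the use of strand behind FPKM are given in the sources used here. Ctsd shares 34.4% of its exon bases with Gm49369 on the same strand. Ctsb shares 12.8% with Fdft1, Ctsa 10.5% with Pltp and 6.87% with Neurl2, Lamp1 9.31% with Grtp1 and Ifi30 8.66% with 6330537M06Rik, all on the opposite strand. Ctsz shares 0.694% with Nelfcd, and Ctsc, Ctsh, Ctss and Lamp2 share none. How reads in the shared bases were counted is not known.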

How the data were processed

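RNA from LICs was sequenced by the authors (TruSeq v2, HiSeq2500) and aligned to GRCm38 with TopHat2 2.0.12, and the submitters' processing notes also name CASAVA 1.8.2. The study's sequencing methods name tissue, not sorted cells, as the source of the RNA. The deposited values are FPKM, 1 per library for each gene. The program, gene lengths and strand setting behind FPKM are not given in the sources used here. Libraries were grouped by their labels (2 WT, 2 CD274-null). Genes were named through the RefSeq table of GRCm38.p6 (25275 of 27179 had a symbol).

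Whole reads were recovered from ratios of FPKM within a gene (tolerance 0.002) for 17083 of 17083 genes that were above 0 in 2 or more libraries, in lowest terms, so that they are lower bounds. R 4.3.3 with limma 3.58.1 was used for the comparison. Linear models were fitted by lmFit to log2(FPKM + 0.5), a scale that understates changes of low genes, and moderated by eBayes with its trend option. The mean FPKM had to reach 0.5, and p-values were adjusted by Benjamini-Hochberg over 13230 genes. Counting intervals (95%, Clopper-Pearson) used scipy 1.17.1. The fit and the read recovery were tested on simulated data.

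The 10 genes and all lists were chosen with earlier results of these data known. Named are the 10 genes, Cd274 and, of each other list, its candidates or else its genes with the highest mean FPKM (for some marker lists only the sum is given). Tfeb, Tfe3, Tfec, Mitf, Glb1, Neu1, H2-Ab1, Xbp1, the X-linked genes Gla, Ids, Atp6ap1 and Atp6ap2, the sex chromosome genes, Cxcr2, Adgre1, Csf1r and Timd4 are outside this rule and were named after their values were seen. Alternatives were 2 other pseudocounts, 2 other filters, 3 scalings, 2 variance models, a replicate block, a GC correction (loess, span 0.3) without and with the block, limma's voom on recovered reads, and leaving out each library. Protein sequences were not used here.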

Additional observations from a re-analysis of the deposited data

How the results depend on the processing

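The count of candidates among the 10 lysosomal genes was 0 in all alternatives that used the 4 libraries, and 0 to 1 when single libraries were left out (limma then assumes that the lone library varies like the other group). The count at an adjusted p under 0.05 was 0 under all 17. The median log2 fold change of the 10 genes was -0.12, and -0.43 to 0.19 with single libraries left out, the highest without WT replicate 2. Candidates over all genes numbered 480, but 170 in a linear model without moderation, and 147 to 634 with single libraries left out. With the GC correction and replicate block together they numbered 283, over 11435 genes. The log2 fold change of Ctsz turned to -0.13 under the GC correction, with and without the block, and Cd274 to -0.00 after quantile normalization. With single libraries left out the ranges were -0.56 to 0.28 for Ctsa, -0.35 to 0.17 for Ctsb, -0.19 to 0.37 for Ctsc, -0.17 to 1.46 for Ctsh, -0.74 to 0.20 for Ctss, -0.09 to 0.30 for Ctsz, -0.73 to 0.13 for Lamp1 and -0.51 to 0.68 for Cd274. Lamp2 (-0.97 to -0.51), Ctsd (-0.51 to -0.19) and Ifi30 (0.13 to 1.19) kept their sign. The cause of these shifts was not tested beyond the smaller number of libraries. Replicates of the 2 labels share only a number: the difference between replicate 1 and replicate 2 correlated at -0.0151 between the labels over 13230 genes. With the replicate block, candidates numbered 526 and 0 of the 10 genes were among them, and 3 (Ctsh, Ifi30, Lamp2) had an unadjusted p under 0.05, against 1 without the block. The order of the WT libraries under other scalings was examined after the data were seen.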
